A study of Mus musculus with 12 samples.

Results

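Germ cell differentiation and meiosis genes were examined in cultured mouse testis cells, as a list of 41 gene symbols that covers spermatogonial differentiation, germ cell bridges, the piRNA pathway, the synaptonemal complex and chromosome axis, meiotic cohesin, meiotic recombination, and spermatid and sperm genes. A row of values was found by symbol for 33 of them among 17995 genes, and Rhox13, Mael, Syce1, Pgk2, Tnp1, Tnp2, Prm1 and Acrv1 were not analysed here. The values came from RNA-seq of 2 lines, C18-4, a mouse spermatogonial stem cell line immortalized with a viral large T antigen, and TM4, a line derived from Sertoli cells of the immature mouse testis. In each line 3 libraries were from cells treated with shM5, a mixture of 3 lentiviral short hairpin RNAs against the M5 muscarinic acetylcholine receptor, and 3 were from cells treated with the control hairpin shNC, so that all 12 libraries carry a hairpin vector. The labels give the strain of all samples as IRC. The lines were kept in different media after stable transfection, and nothing in the sources says that the 3 libraries of a group came from separate cultures. The p-values below therefore measure the spread between these libraries, which may be technical. The question was which of these genes are detected at all in each line, and whether shM5 treatment changed those that are.

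In the testis, spermatogonial stem cells renew in contact with Sertoli cells, which are somatic and never enter meiosis. Retinoic acid drives spermatogonia to differentiate and switches on Stra8, the gatekeeper of meiosis. Chromosomes held by meiotic cohesins are then cut by Spo11, joined in pairs by the synaptonemal complex and repaired, in part as crossovers. Spermatids then replace histones with protamines. Many of these genes are silent in the soma and in undifferentiated cells, and promoter DNA methylation and E2F6 or MGA complexes are known to keep several of them silent.

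For 28 of the 33 genes a promoter from 250 bases upstream to 50 bases downstream of the annotated start was available in RefSeq on GRCm38.p6. A CACGTG E-box, the core of the letters read by MGA and other helix-loop-helix factors, lay in a promoter of 10 of the 28 genes (35.7%), against 10.2% of 14057 genes with values. The E2F-type letters TTCCCGCC lay in 6 of 28 (21.4%), against 3.9%, and the cAMP response element TGACGTCA in 0 of 28, against 2.98%. Both strands were searched, the first and last of these motifs read the same on either strand, and the motifs were chosen after values had been seen. A match is a description of the letters and no evidence of binding. The promoters of Stag3 and Syce2 are shown because these genes gave the highest levels in C18-4 cells. Those of Ddx4 and Hormad1 are shown because both genes were at or near 0 in all libraries and hold such letters. In the promoters shown, Stag3 holds the E-box alone, and Syce2, Ddx4 and Hormad1 hold the E-box and the E2F-type letters. Syce2 has another annotated promoter, from position 84871861, with 19 CpG dinucleotides and no match. Hormad1 has another from position 95559429 with the same matches. Capitals mark the matches, CACGTG on the strand shown and GGCGGGAA for TTCCCGCC on the other strand, and no match overlaps another here. The match in Stag3 starts 170 bases upstream of the RefSeq start, those in Syce2 at 88 bases for the E-box and 35 for the E2F-type letters, those in Ddx4 at 29 and 137, and those in Hormad1 at 57 and 20 for its pair of E-boxes and 96. In the GENCODE M21 annotation Stag3, Syce2 and Ddx4 start further upstream, at 138280240, 84872111 and 112652475. Their matches lie downstream of those starts.
Stag3, chr5:138280259-138280558, plus strand: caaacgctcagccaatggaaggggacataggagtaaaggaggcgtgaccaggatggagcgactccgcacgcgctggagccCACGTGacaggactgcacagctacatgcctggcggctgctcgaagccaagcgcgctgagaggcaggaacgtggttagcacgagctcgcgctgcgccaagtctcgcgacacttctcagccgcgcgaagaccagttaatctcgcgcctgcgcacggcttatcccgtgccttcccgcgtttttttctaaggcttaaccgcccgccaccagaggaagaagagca
Syce2, chr8:84872008-84872307, plus strand: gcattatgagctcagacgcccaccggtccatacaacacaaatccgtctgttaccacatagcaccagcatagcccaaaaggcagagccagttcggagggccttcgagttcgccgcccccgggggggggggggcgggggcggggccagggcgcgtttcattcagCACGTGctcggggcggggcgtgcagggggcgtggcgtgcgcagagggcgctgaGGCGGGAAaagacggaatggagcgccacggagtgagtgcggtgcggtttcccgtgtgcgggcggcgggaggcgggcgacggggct
Ddx4, chr13:112652261-112652560, minus strand: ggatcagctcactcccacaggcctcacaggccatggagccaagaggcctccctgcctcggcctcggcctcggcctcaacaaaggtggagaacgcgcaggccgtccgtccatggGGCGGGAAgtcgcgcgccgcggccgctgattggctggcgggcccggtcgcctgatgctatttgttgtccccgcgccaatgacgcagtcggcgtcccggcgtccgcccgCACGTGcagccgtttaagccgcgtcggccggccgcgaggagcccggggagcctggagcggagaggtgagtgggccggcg
Hormad1, chr3:95559427-95559726, plus strand: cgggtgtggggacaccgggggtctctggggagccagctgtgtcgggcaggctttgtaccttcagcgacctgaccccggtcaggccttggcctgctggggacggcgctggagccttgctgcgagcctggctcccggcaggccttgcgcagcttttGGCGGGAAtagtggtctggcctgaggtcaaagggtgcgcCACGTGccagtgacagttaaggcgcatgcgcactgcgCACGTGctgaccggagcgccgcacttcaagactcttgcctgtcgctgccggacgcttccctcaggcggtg
The 4 promoters hold 30, 33, 38 and 24 CpG dinucleotides in the order shown. The median over the 28 genes, with the highest promoter of each gene, was 18, as it was over all 14057 genes. These 4 genes were chosen by their levels, so they show nothing about a link of letters or CpG content with level, which was not tested.

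Libraries and lines were checked first. Chrm5, the gene of M5, was listed at 0 or 0.01 RPKM in every library, so these values do not check the shM5 label. RPKM sums per library ran from 506413 to 540231, and the number of reads is not known. TM4 shNC replicate 3 differed from the 3 TM4 shM5 libraries by 0.202 to 0.257 (root mean square difference in log2(RPKM + 0.1)) and from TM4 shNC replicates 1 and 2 by 0.640 and 0.642, so it lay with the shM5 libraries. In C18-4 cells, replicate 3 of both groups stood apart from replicates 1 and 2. Of 13 spermatogonial stem cell markers with values, 4 had a mean of at least 0.5 RPKM in C18-4 cells, and the defining markers Ret and Zbtb16 were at 0 to 0.02 RPKM there while Gfra1 was at 0.12 to 0.34. Uchl1, also on that list, was at 76.8 to 140 RPKM in C18-4 cells and listed at 0 in TM4 cells. Of 5 genes of that list tested between the lines, 2 were called higher in C18-4 cells by limma and 3 lower. Among all genes tested 43.9% were called higher and 29.2% lower. In TM4 cells 3 of the 13 had a mean of at least 0.5 RPKM. Of 13 Sertoli cell markers 6 reached that mean in each line, and these were not all the same. Wt1 was at 53.9 to 72.3 RPKM in C18-4 cells and at 0.06 to 0.15 in TM4 cells, whereas Sox9 was at 0 to 0.01 and 1.11 to 1.74 RPKM. Amh stayed at or under 0.19 RPKM in both. Markers of fibroblasts and peritubular cells summed to 1181 to 1391 RPKM in C18-4 and 2004 to 3033 RPKM in TM4 cells, Leydig cell markers to at most 1.58 RPKM in any library, and immune cell markers to at most 4.89 and 20.0 RPKM. Some defining markers of each labelled cell type were thus at or near 0 and others were not, and the lines are called here by their names.

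Most germ cell differentiation and meiosis genes were at or near 0 in both lines. In C18-4 cells 8 of the 33 were listed at 0 in all 6 libraries, 12 were above 0 in some, 6 were above 0 in all with a mean under 0.5 RPKM, and 7 had a mean of at least 0.5 RPKM. In TM4 cells these counts were 9, 14, 7 and 3. At least 1 library was above 0 for 25 genes in C18-4 and 24 in TM4 cells, of which 19 were shared, 6 were seen in C18-4 alone and 5 in TM4 alone. That was 75.8% and 72.7% of these genes, where 90.2% and 86.8% of all genes were above 0 in some library. Over all 17995 genes, 64.5% in C18-4 and 61.2% in TM4 cells had a mean of at least 0.5 RPKM, against 21.2% and 9.09% of these genes. With a lower limit of 0.1 RPKM 13 and 9 of the genes counted as detected, and with 1 RPKM 6 and 3. For the 14 genes above 0 in some library and under 0.2 RPKM in all, the lowest value above 0 times the longest annotated transcript ranged from 0.0438 to 0.0874 RPKM kb, with a median of 0.0635. A single read would give 1 such step in every gene, so values of this size are not told from 0 here. In bulk RNA, fewer cells with a transcript and less of it per cell cannot be told apart.

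**Figure D1:**
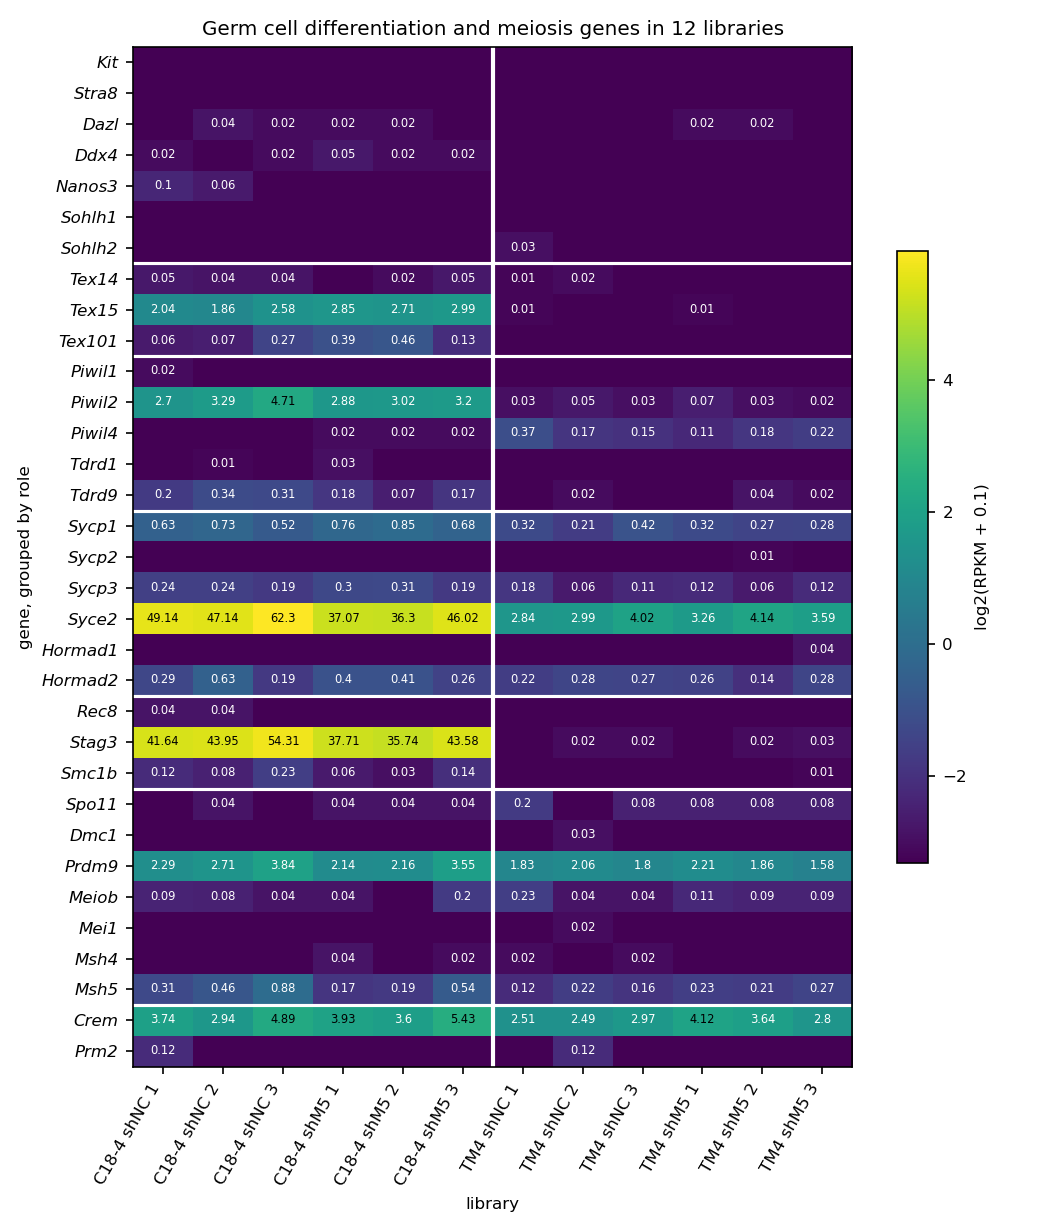
RPKM of the 33 genes (rows, grouped by role from spermatogonial differentiation at the top to spermatid genes at the bottom) in the 12 libraries (columns), coloured by log2(RPKM + 0.1), with blank cells at 0. Stag3 and Syce2 stand at 35.7 to 62.3 RPKM in C18-4 cells, and Kit, Stra8 and Sohlh1 are at 0 in every library.

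The genes of spermatogonial differentiation and meiotic entry were the lowest as a group, and none of 7 with values reached a mean of 0.5 RPKM in either line. Kit, the receptor that marks differentiating spermatogonia, Stra8, and Sohlh1, a transcription factor of differentiating spermatogonia, were at 0 in all 12 libraries. Sohlh2, its partner, was at 0.03 RPKM in TM4 shNC replicate 1 and at 0 elsewhere. Ddx4, the RNA helicase that marks germ cells of both sexes, reached at most 0.05 RPKM in C18-4 and 0 in TM4 cells. Dazl, an RNA-binding protein that germ cells need to become competent for meiosis, was at 0 to 0.04 RPKM in C18-4 and 0 to 0.02 in TM4 cells. Nanos3, an RNA-binding factor of early germ cells, was at 0.10 and 0.06 RPKM in C18-4 shNC replicates 1 and 2 and at 0 in the other libraries.

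The germ cell bridge and testis-expressed genes differed among themselves. Tex15, which is needed to repair meiotic breaks and to silence transposons, was at 2.04, 1.86 and 2.58 RPKM in the C18-4 shNC libraries and at 2.85, 2.71 and 2.99 in the C18-4 shM5 libraries. The TM4 libraries held it at 0.01 RPKM in 2 cases and at 0 in the other 4. Tex101, a germ cell surface glycoprotein, was at 0.06, 0.07 and 0.27 RPKM with shNC and 0.39, 0.46 and 0.13 with shM5 in C18-4 cells, with overlapping groups, and at 0 in all 6 TM4 libraries. Tex14, which keeps intercellular bridges open, reached at most 0.05 RPKM.

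In the piRNA pathway, which silences transposons in germ cells, the 3 PIWI proteins split. Piwil2 (MILI) was at 2.70, 3.29 and 4.71 RPKM with shNC and 2.88, 3.02 and 3.20 with shM5 in C18-4 cells. Its TM4 values were 0.02 to 0.07 RPKM. Piwil4 (MIWI2), the nuclear PIWI protein of fetal germ cells, went the other way, at 0 in the 3 C18-4 shNC libraries, 0.02 in each C18-4 shM5 library, 0.37, 0.17 and 0.15 RPKM in the TM4 shNC libraries and 0.11, 0.18 and 0.22 in the TM4 shM5 libraries. Its exons overlap a predicted gene by 137 bases in the GENCODE M21 annotation. Piwil1 (MIWI), the form of late spermatocytes and spermatids, was at 0.02 RPKM in 1 library. Tdrd9, a helicase that works with Piwil4, was at 0.20, 0.34 and 0.31 RPKM with shNC and 0.18, 0.07 and 0.17 with shM5 in C18-4 cells, and at most 0.04 in TM4 cells. The shNC and shM5 values of Tdrd9 in C18-4 cells did not overlap, but the nearest were 0.20 and 0.18 RPKM, and the difference was not called. Of genes averaging 0.5 RPKM or more in C18-4 cells, 9.55% were lower with shM5 without overlap. Tdrd1, a scaffold of the same granules, was at most 0.03 RPKM.

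Of the synaptonemal complex, 1 central element gene was high and the lateral and transverse parts were not. Syce2, a central element protein, was at 49.1, 47.1 and 62.3 RPKM with shNC and 37.1, 36.3 and 46.0 with shM5 in C18-4 cells. In TM4 cells it was at 2.84, 2.99 and 4.02 RPKM with shNC and 3.26, 4.14 and 3.59 with shM5, so that it was detected in both lines and the lines did not overlap. Sycp1, the transverse filament that Syce2 joins, was at 0.63, 0.73 and 0.52 RPKM with shNC and 0.76, 0.85 and 0.68 with shM5 in C18-4 cells, and at 0.21 to 0.42 in TM4 cells. Sycp3, the axial element protein used to stage meiotic prophase, was at 0.19 to 0.31 RPKM in C18-4 cells, and in TM4 cells at 0.18, 0.06 and 0.11 with shNC and 0.12, 0.06 and 0.12 with shM5. Sycp3 exons overlap those of Chpt1 on the opposite strand by 660 bases, and since strand use is not stated, reads of the 2 genes cannot be told apart there. Sycp2, its partner, was at 0.01 RPKM in a single TM4 library and at 0 in C18-4 cells. Hormad2, which watches over unpaired axes, was at 0.29, 0.63 and 0.19 RPKM with shNC and 0.40, 0.41 and 0.26 with shM5 in C18-4 cells, and at 0.14 to 0.28 in TM4 cells. Hormad1, its relative and the axis protein that promotes breaks, was at 0.04 RPKM in 1 TM4 library.

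Meiotic cohesin showed the widest split of the list. Stag3, the meiosis-specific STAG subunit, was at 41.6, 44.0 and 54.3 RPKM with shNC and 37.7, 35.7 and 43.6 with shM5 in C18-4 cells. In TM4 cells it was at 0, 0.02 and 0.02 RPKM with shNC and 0, 0.02 and 0.03 with shM5. The meiotic subunits that Stag3 works with were low in both lines. Smc1b was at 0.12, 0.08 and 0.23 RPKM with shNC and 0.06, 0.03 and 0.14 with shM5 in C18-4 cells, and at 0.01 in 1 TM4 library. The lines did not overlap for Smc1b, which was under the filter of the line comparison below. With no filter it differed by 0.98 ± 0.17 (SE) on the log2(RPKM + 0.1) scale (limma, adjusted p = 0.000349). In that setting 6363 of 17223 genes were called higher in C18-4 cells. Of genes averaging 0.5 RPKM or more, 32.9% were higher there without overlap. Smc1b was so low that the size depends on the pseudocount, and without read numbers little can be said of it. Rec8, the meiotic kleisin, was at 0.04 RPKM in C18-4 shNC replicates 1 and 2 and at 0 in the other 10 libraries.

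Among recombination genes only Prdm9 reached a mean of 0.5 RPKM, and did so in both lines. Prdm9, the histone methyltransferase whose zinc fingers place recombination hot spots, was at 2.29, 2.71 and 3.84 RPKM with shNC and 2.14, 2.16 and 3.55 with shM5 in C18-4 cells. In TM4 cells it was at 1.83, 2.06 and 1.80 RPKM with shNC and 2.21, 1.86 and 1.58 with shM5. Prdm9 belongs to a large zinc finger family with similar sequences, and its assignment of reads is uncertain. Msh5, which stabilises crossover intermediates with Msh4, was at 0.31, 0.46 and 0.88 RPKM with shNC and 0.17, 0.19 and 0.54 with shM5 in C18-4 cells, and at 0.12 to 0.27 in TM4 cells. Msh4 was at 0 to 0.04 RPKM in every library, so the partners were not at one level. Spo11, the enzyme that makes meiotic breaks, reached 0.04 RPKM in C18-4 and 0.20 in TM4 cells, and Meiob, which coats single-stranded DNA, 0.20 and 0.23. Dmc1, the meiotic strand exchange protein, and Mei1, which breaks need, were at 0 in C18-4 cells and above 0 in 1 TM4 library each, at 0.03 and 0.02 RPKM.

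Of the spermatid and sperm genes 2 had values. Crem, a transcription factor that switches on spermatid genes and also has short forms in somatic cells, was at 3.74, 2.94 and 4.89 RPKM with shNC and 3.93, 3.60 and 5.43 with shM5 in C18-4 cells. In TM4 cells it was at 2.51, 2.49 and 2.97 RPKM with shNC and 4.12, 3.64 and 2.80 with shM5. The values do not tell its forms apart, and its exons overlap those of Gm6225 on the opposite strand by 472 bases, where reads cannot be told apart without strand. Prm2, a protamine, was at 0.12 RPKM in 1 library of each line and at 0 in the other 10.

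**Figure D2:**
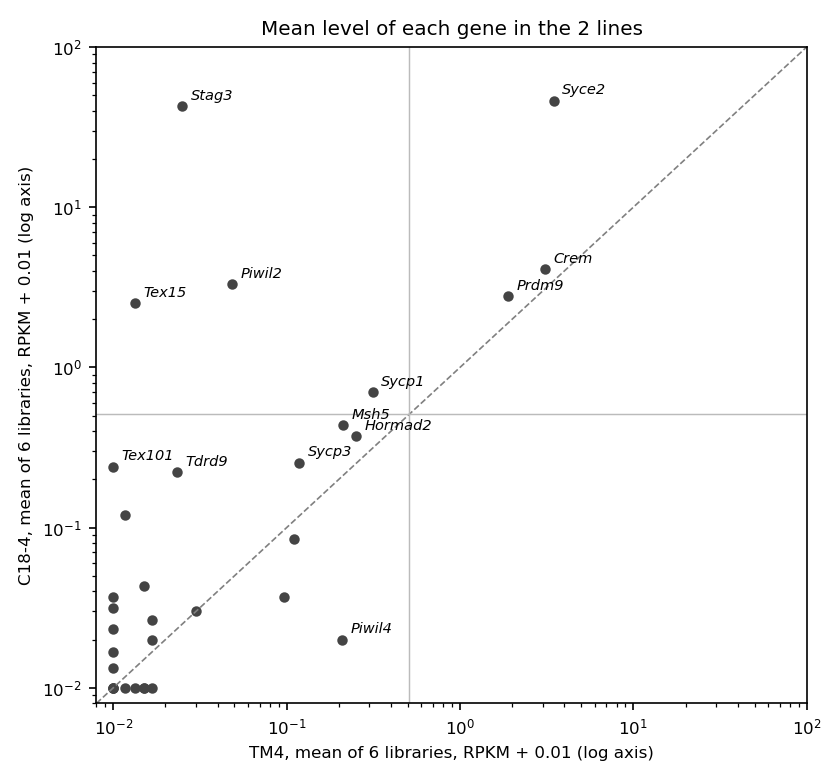
Mean level of each of the 33 genes in the 6 TM4 libraries (x axis) and the 6 C18-4 libraries (y axis), as RPKM + 0.01 on log axes, with a dashed line of equal levels and grey lines at a mean of 0.5 RPKM. Stag3, Piwil2 and Tex15 lie above 0.5 RPKM in C18-4 cells and near 0 in TM4 cells, Syce2, Crem and Prdm9 above it in both, and Piwil4 is the one labelled gene below the dashed line.

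The lines were compared with limma on log2(RPKM + 0.1) over all 12 libraries, among genes averaging 0.5 RPKM or more, with Benjamini-Hochberg adjustment over 11773 genes. Stag3, Tex15, Piwil2 and Syce2 were higher in C18-4 cells without overlap of the 6 and 6 libraries, and Prdm9 and Crem were higher by less, with overlapping libraries. On this log2 scale Stag3 differed by 8.54 ± 0.11 (SE; limma, adjusted p = 3.98e-14), and Tex15 by 4.64 ± 0.11 (limma, adjusted p = 4.92e-12). Piwil2 differed by 4.61 ± 0.15 (limma, adjusted p = 7.19e-11) and Syce2 by 3.69 ± 0.11 (limma, adjusted p = 4.80e-11). Prdm9 was higher by 0.50 ± 0.16 (limma, adjusted p = 0.0151) and Crem by 0.39 ± 0.15 (limma, adjusted p = 0.0362). All 6 genes tested were thus called higher, where 43.9% of all genes tested were called higher, 29.2% lower and 73.0% in either direction. The 4 without overlap compare with 32.9% of all genes higher without overlap. Stag3, Tex15 and Piwil2 passed the filter through C18-4 cells alone and had to differ, so the count of calls supports nothing about the list. Sycp1, with a mean of 0.499 RPKM over the 12 libraries, just missed the filter. The median difference of the 6 genes was 4.15 and that of all genes 0.14. That median was set in part by the same filter, so it too supports nothing about the list. For Stag3, Tex15 and Piwil2 the size depends on the pseudocount, since they were near 0 in TM4 cells, and with 1 RPKM in place of 0.1 the differences were 5.42, 1.79 and 2.04. Line, medium and batch cannot be told apart in this design.

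The calls of Crem and Prdm9 were not steady. That of Crem was lost, with adjusted p from 0.0527 to 0.0911 in limma, without C18-4 shNC replicate 1 or 3, C18-4 shM5 replicate 3, TM4 shNC replicate 1 or 2, or TM4 shM5 replicate 2 or 3. With the shNC libraries alone Crem gave an adjusted p of 0.0848 and Prdm9 of 0.0550 in limma, and with the shM5 libraries alone 0.226 and 0.119. Stag3, Tex15, Piwil2 and Syce2 were called in each of these settings. At the threshold of the study's methods (adjusted p of at most 0.001 and a difference of at least 1 on the log2 scale) these 4 of 6 were called, where 16.8% of all genes were called higher. Stag3, Tex15 and Piwil2 had passed the filter through C18-4 cells alone, so this count supports nothing about the list either.

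With the filter lowered to 0.1 RPKM, 13 of the genes could be tested between the lines. Of these 11 were called higher in C18-4 cells, where 44.4% of all genes were, and 1 lower, where 28.7% were, 73.1% in all. Tex101, listed at 0 in TM4 cells, Tdrd9 (1.41), Sycp1 (0.98), Sycp3 (0.74) and Msh5 (0.67 on the log2 scale) were among the higher ones and Piwil4 was lower by 1.41 (limma, adjusted p = 2.35e-05), while Hormad2 was not called. Tex101, Tdrd9, Stag3, Tex15 and Piwil2 passed this filter through C18-4 cells alone and Piwil4 through TM4 cells alone, and had to differ, so this count too supports nothing about the list. Over all 33 genes the mean was higher in C18-4 cells for 21, higher in TM4 cells for 8 and equal for 4. Without overlap of the libraries 9 were higher in C18-4 cells and 1 lower. Many of these means were at or near 0 and the split was not counted over all genes, so it is not read as a result.

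**Figure D3:**
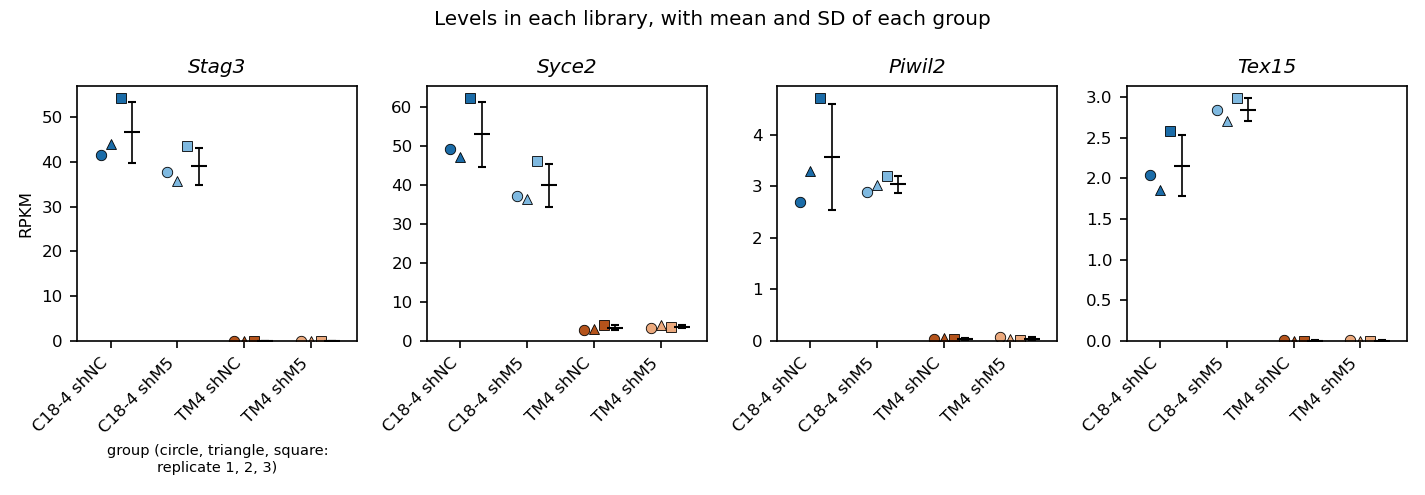
RPKM of Stag3, Syce2, Piwil2 and Tex15 (4 panels, linear axes from 0) in the 4 groups, with 1 point per library (circle, triangle and square for replicates 1, 2 and 3) and the mean and SD of the group beside them. Syce2 is lower and Tex15 higher in all 3 C18-4 shM5 libraries than in any C18-4 shNC library, and replicate 3 is the highest point of its group for Stag3, Syce2, Piwil2 and Tex15 in C18-4 cells.

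In C18-4 cells the shM5 and shNC libraries were compared for the 7 genes that averaged 0.5 RPKM or more there. Syce2 and Stag3 had lower means with shM5 and Tex15 a higher one, and no difference was called without the replicate block described below. The mean of Syce2 was 39.8 ± 5.40 RPKM with shM5 and 52.9 ± 8.24 with shNC (SD, n = 3 each), and the groups did not overlap. For Stag3 the means were 39.0 ± 4.08 and 46.6 ± 6.75 RPKM, with overlap. Tex15 was at 2.85 ± 0.14 RPKM with shM5 and 2.16 ± 0.37 with shNC, without overlap. The share of all genes without overlap was 9.55% lower and 9.3% higher. In limma, the log2 differences were -0.41 ± 0.14 (SE) for Syce2 with an adjusted p of 0.291, -0.25 ± 0.12 for Stag3 with 0.492, and 0.40 ± 0.16 for Tex15 with 0.379. Sycp1 (0.25), Crem (0.17), Piwil2 (-0.19) and Prdm9 (-0.17) had adjusted p between 0.741 and 0.875. None of the 7 was called, where 0.586% of all 11611 genes were, and 2 of them, Syce2 and Tex15, had an unadjusted p under 0.05. The median over the 7 genes was -0.17 and over all genes -0.00. At a filter of 0.1 RPKM 13 genes of the list could be tested and none was called, where 68 of 12869 genes were, and Tdrd9 differed by -0.69 ± 0.31 (limma, adjusted p = 0.452).

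Same-numbered C18-4 libraries deviated together, with correlations of 0.439, 0.409 and 0.631, so the test was also made with the replicate number as a block. This pairing was read from the same values. Replicates 1 and 2 of different number also correlated, at 0.341 and 0.345, so mainly replicate 3 stood apart. Syce2 (limma with the replicate block, SE 0.05, adjusted p = 0.00324) and Stag3 (SE 0.06, adjusted p = 0.0267) were then called lower, 2 of 7, where 6.73% of all genes were called lower and 5.21% higher, 11.9% in all. Tex15 had an adjusted p of 0.0719 in limma with the block. Both Syce2 and Stag3 were lower in all 3 same-numbered pairs, as 25.8% of all genes were. Without replicate 3 of both groups, an alternative chosen after seeing the data, Syce2 (adjusted p = 0.000348), Stag3 (0.0109) and Tex15 (0.0234) were called by limma in the same directions. That was 3 of 7, where 3029 of 11549 genes were called, 1482 higher and 1547 lower. At the threshold of the study's methods none was called, with or without the block, since each differed by less than 1 on the log2 scale. Other marker lists moved with these results. Sertoli cell markers summed to 79.0 to 80.7 RPKM with shNC and 85.8 to 94.9 with shM5, and stem cell markers, carried by Uchl1, to 86.0 to 129 and 131 to 150. Of 7 fibroblast and peritubular markers tested, Col3a1 was called higher without the block and 3 with it, while their sum was 1197 to 1270 and 1181 to 1391 RPKM. Ret and Zbtb16 were at 0 to 0.02 RPKM and Gfra1 at 0.12 to 0.34 over both groups, and the part of these markers in the result was not tested.

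**Figure D4:**
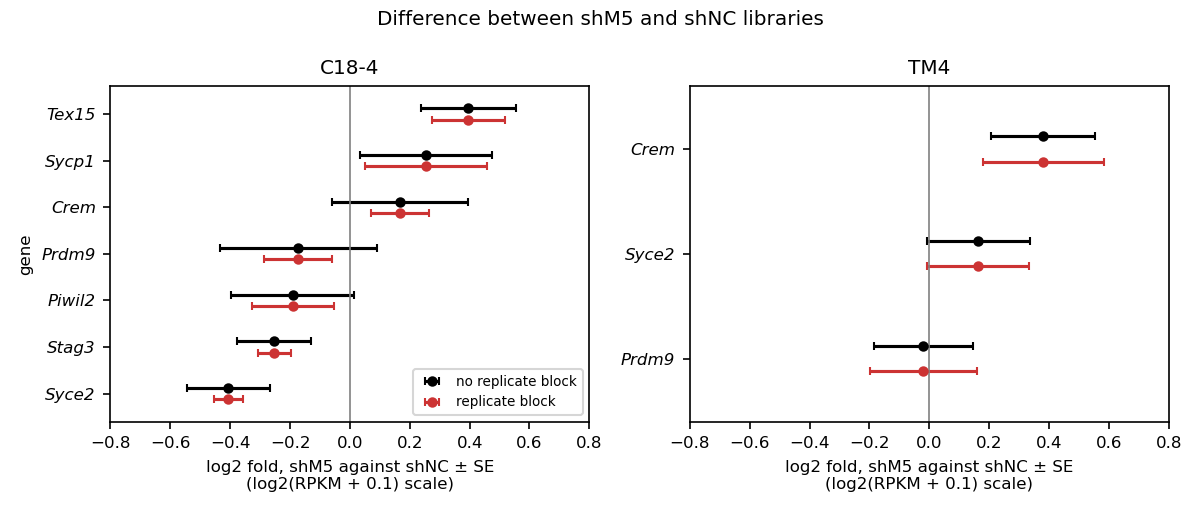
Difference between shM5 and shNC libraries in log2(RPKM + 0.1) with its SE (horizontal bars), for the 7 genes tested in C18-4 cells (left) and the 3 tested in TM4 cells (right), without (black) and with (red) the replicate block. In C18-4 cells the bars of Syce2 and Stag3 lie below 0 in both fits and narrow with the block, from 0.14 to 0.05 for Syce2.

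In TM4 cells 3 genes could be tested between shM5 and shNC, and none was called, where 0.0% of 11016 genes were, with 2866 genes at an unadjusted p under 0.05. Crem was at a mean of 3.52 ± 0.67 RPKM with shM5 and 2.66 ± 0.27 with shNC (SD, n = 3 each), a log2 difference of 0.38 ± 0.17 (limma, adjusted p = 0.197). Syce2 differed by 0.16 ± 0.17 (limma, adjusted p = 0.497) and Prdm9 by -0.02 ± 0.17 (limma, adjusted p = 0.938), and all 3 had overlapping groups. At a filter of 0.1 RPKM 9 could be tested and none was called, as was none of 12219 genes. TM4 shNC replicate 3 lay with the shM5 libraries, and without it Crem was called higher (0.46, limma, adjusted p = 0.0348). That was 1 of 3 genes of the list, where 7433 of 11026 genes were called, 4026 of them higher. Without replicate 3 of both groups Crem (0.61, limma, adjusted p = 0.000936) and Syce2 (0.32, limma, adjusted p = 0.0478) were called higher. That was 2 of 3, where 8016 of 11030 genes were called, 4403 of them higher. Fibroblast and peritubular markers moved with the same libraries, at 2004 to 2860 RPKM in sum with shNC and 2674 to 3033 with shM5. Their part in the result was not tested. Genes that were near 0 in TM4 cells stayed there with shM5. Stag3 reached 0.03 RPKM, Piwil2 0.07 and Tex15 0.01, and Kit, Stra8, Sohlh1, Ddx4, Rec8 and Tex101 were at 0 in all 3 shM5 libraries.

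An interaction term in a fit of the 12 libraries tested whether the shM5 effect differed between the lines. It was called for none of 6 genes, where 0.102% of 11773 genes were called, and was -0.57 ± 0.23 for Syce2 (limma, adjusted p = 0.219), with an unadjusted p under 0.05, and between -0.29 and 0.40 for the other 5. Without TM4 shNC replicate 3 it was -0.72 for Syce2 (limma, adjusted p = 0.0159). That was 1 call among 7 genes of the list, where 4477 of 11793 genes were called. With the replicate block as well the interaction was -0.73 for Syce2 (adjusted p = 0.00073) and -0.44 for Crem (limma, adjusted p = 0.0281). These were 2 of 7, where 6371 of 11793 genes were called. Whether Syce2 was called thus rests on TM4 shNC replicate 3.

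Relatives of these genes that act in all dividing cells were set beside them, on the same per-length scale. All 11 had a mean of at least 0.5 RPKM in both lines. Stag3 was at 35.7 to 54.3 RPKM in C18-4 cells, above Stag1 at 17.4 to 21.6 in every library. Stag2 was at 33.8 to 37.5 RPKM there, and all Stag3 values but the lowest lay above that range. In TM4 cells Stag1 had a mean of 18.5 and Stag2 of 30.3 RPKM, with Stag3 at 0.03 or less. Rad21, the kleisin of mitotic cohesin, was at 158 to 169 and 126 to 177 RPKM where Rec8 was near 0, and Smc1a at a mean of 59.7 and 64.1 RPKM where Smc1b had means of 0.11 and 0.0017. Of the 11 relatives 6 were called higher in C18-4 cells, 3 lower and 2 not, where 43.9% of all genes tested were higher and 29.2% lower. With shM5 in C18-4 cells none of the 11 was called, and with the replicate block 1 was, Pgk1, lower by 0.24 on the log2 scale (limma, adjusted p = 0.0116).

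**Figure D5:**
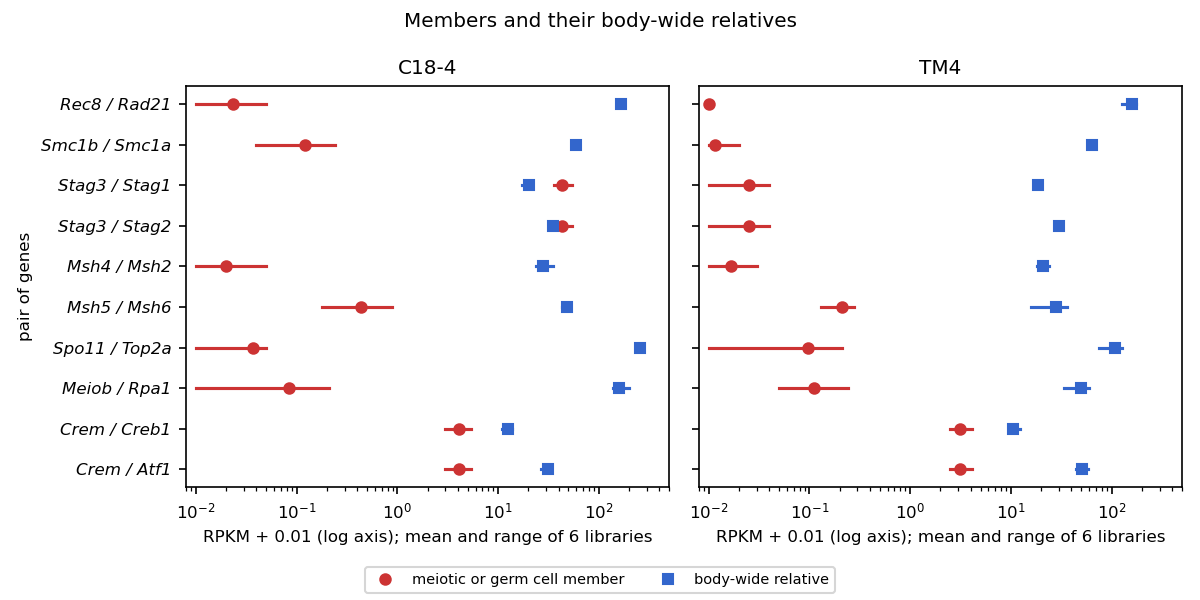
Mean (marker) and range (line) over the 6 libraries of each line, as RPKM + 0.01 on a log axis, of meiotic or germ cell genes (red circles) and their body-wide relatives (blue squares), for 10 pairs named as member / relative. Stag3 in C18-4 cells is the one circle that lies to the right of its squares, and in TM4 cells each circle lies to the left.

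Other genes of the same pathways were examined from lists of their own. Of 20 other meiosis genes with values, 8 had a mean of at least 0.5 RPKM in C18-4 and 7 in TM4 cells, and those with the highest means were Sun1 and Trip13, which have roles outside meiosis, Psmc3ip and Mnd1. The pair Psmc3ip and Mnd1, which helps Dmc1, was at means of 30.7 and 15.1 RPKM in C18-4 and 10.9 and 21.1 in TM4 cells. Between the lines 5 of 9 tested were called higher in C18-4 cells, 3 lower and 1 not, against the same 43.9% and 29.2%. Of 12 other piRNA pathway genes 3 reached a mean of 0.5 RPKM in each line, Tdrd7, Tdrkh, Ddx25 and Gtsf1 had the highest means over the 12 libraries, and Ddx25, a testis RNA helicase, was at 4.12 to 6.34 RPKM in C18-4 cells and listed at 0 in TM4 cells. Of 12 other spermatid genes 3 did in each line. Odf2, which is also a centrosome protein, was at means of 23.5 and 25.6 RPKM, and Izumo1, the sperm protein that binds the egg, at 0.77 to 1.74 RPKM in C18-4 cells and listed at 0 in TM4 cells. Of 3 other piRNA pathway genes tested between the lines, 2 were called higher in C18-4 cells and 1 lower. Of 4 other spermatid genes tested, 2 were called higher, 1 lower and 1 not, against the same 43.9% and 29.2%. With shM5 none of the genes tested from the 3 lists was called in either line, with or without the replicate block.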

How the data were processed

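Gene expression was measured by RNA-seq in 12 libraries, 3 for each of C18-4 shNC, C18-4 shM5, TM4 shNC and TM4 shM5, grouped by their labels. The authors selected polyadenylated RNA on oligo(dT) beads, aligned reads to a gene reference with SOAPaligner and turned the reads on each gene into RPKM, which scales them by gene length and library size. These deposited RPKM values have 2 decimals for 17995 genes and keep no read numbers, so depth is known only from the steps of low values and a count test was not used. The genome build is not given in the sources used here.

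The genes and lists were chosen with earlier results of these data known. log2(RPKM + 0.1) was fitted with limma 3.58.1 in R 4.3.3 with a mean-variance trend, for genes averaging 0.5 RPKM or more over the libraries fitted, and called at a Benjamini-Hochberg adjusted p below 0.05. This gave 11611 genes in C18-4, 11016 in TM4 and 11773 over both lines, and the step was tested on simulated data. Each line was fitted on its own, and the lines were compared in a fit of 4 group means. Genes averaging 0.5 RPKM or more in a line, and the 5 highest below it, are given by library. One relative set beside these genes is not reported here. From other lists the text names the 4 with the highest mean, and further genes were picked with their values in view. Annotation was from GENCODE M21 and promoters from RefSeq on GRCm38.p6, neither known to be the build of the files.

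Deviations from group means of same-numbered C18-4 libraries correlated at 0.439, 0.409 and 0.631, so the replicate numbers were taken to pair them. Replicates 1 and 2 of different number also correlated, at 0.341 and 0.345, and replicate 3 with the others at -0.514 to -0.467. Alternatives were the replicate block, other pseudocounts and filters, equal RPKM sums, no trend, the study's threshold, and leaving out libraries.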

Additional observations from a re-analysis of the deposited data

How the results depend on the processing

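Of the genes described, Stag3, Tex15, Piwil2 and Syce2 were called between the lines under every alternative, and 9 signs turned, all of differences that were not called. They turned without 1 library in each case except Prdm9 in TM4 cells, which also turned (0.060) without replicate 3 of both groups. Over the fits without 1 library, log2 differences in C18-4 cells ranged from -0.0082 to 0.35 for Crem, -0.37 to 0.023 for Piwil2 and -0.41 to 0.029 for Prdm9, and in TM4 cells from -0.14 to 0.094 for Prdm9. In the interaction they ranged from -0.39 to 0.0014 for Piwil2 and -0.39 to 0.048 for Prdm9.

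With the replicate block 2 of 7 genes of the list were called in C18-4 cells, where 1386 of 11611 genes were. Without replicate 3 of both groups 3 of 7 were called in C18-4 cells, where 3029 of 11549 genes were. In TM4 cells 2 of 3 were then called, where 8016 of 11030 genes were. Between the lines 12 of 13 were called at a filter of 0.1 RPKM, where 9628 of 13167 genes were, and 15 of 30 with no filter, where 10417 of 17223 were. In the interaction 2 of 7 were called with the block without TM4 shNC replicate 3, where 6371 of 11793 genes were. A mean of at least 0.1 RPKM counted 13 genes as detected in C18-4 and 9 in TM4 cells. Leaving out 1 library gave 0 to 0 called in C18-4 cells, 0 to 1 in TM4 cells, 5 to 7 between the lines and 0 to 1 in the interaction.

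Among all genes, the 68 called in C18-4 cells (34 higher, 34 lower) became 30 with equal RPKM sums (19 higher, 11 lower), 45 without the trend, 4 with no filter and 0 at the study's threshold, 1386 with the replicate block and 9 with the block and that threshold, 3029 without replicate 3 of both groups, and 0 to 237 without 1 library. In TM4 cells 0 became 8016 without replicate 3 of both groups and 0 to 7433 without 1 library. Between the lines 8596 became 3101 at the study's threshold, 3108 with the block as well, and 8211 to 9332 without 1 library. In the interaction 12 became 27 with a pseudocount of 1, 21 with no filter, 5 with equal sums, 22 without the trend, 0 at the study's threshold, 2 with the block, 0 with both, 6371 with the block without TM4 shNC replicate 3, and 0 to 4477 without 1 library. The cause was not tested. In TM4 cells same-numbered libraries correlated at 0.0729, 0.0489 and 0.127, not all above 0.1, and share only a number. The replicate block left 0 of 3 genes of the list called there and all 6 called between the lines. RPKM without read numbers limits what can be said of genes under 0.2 RPKM.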

Other observations

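Genes of retinoic acid signalling, which starts spermatogonial differentiation, were described in the same way. Of 19 with values (Rxrg and Dmrt1 were not analysed here), 10 had a mean of at least 0.5 RPKM in C18-4 and 11 in TM4 cells, as did 64.5% and 61.2% of all genes. Rarg, a retinoic acid receptor, was at 32.2 to 43.9 RPKM in C18-4 and 55.3 to 64.5 in TM4 cells. Aldh1a1, which makes retinoic acid from retinal, was at 73.9 to 93.2 and 0.65 to 1.12 RPKM, and Kitl, the ligand of Kit, at 2.06 to 2.93 and 18.4 to 49.5. Rxrb, a partner receptor, was at 11.3 to 18.6 and 16.6 to 23.7 RPKM. Between the lines 5 of 12 tested were called higher in C18-4 cells by limma and 7 lower, where 43.9% and 29.2% of all genes were.

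With shM5 none of 10 genes of this list was called in C18-4 cells and none of 11 in TM4 cells by limma, where 0.586% and 0.0% of all genes were, with 3 at an unadjusted p under 0.05 in each line. With the replicate block Crabp2, which carries retinoic acid to its receptors, Rarg and Rxra were called lower in C18-4 cells, 3 of 10, where 6.73% of all genes were called lower, and the first and last of these were named after their values were seen. Crabp2 was at 1.87, 1.74 and 1.04 RPKM with shNC and 0.71, 0.16 and 0.24 with shM5, a log2 difference of -1.95 ± 0.30 (SE; limma with the block, adjusted p = 0.00878). Its groups did not overlap. Rarg differed by -0.27 and Rxra by -0.43 on the log2 scale (limma with the block, adjusted p = 0.0208 and 0.0183). In TM4 cells Kitl was at 49.5, 49.4 and 22.7 RPKM in shNC replicates 1, 2 and 3 and at 18.4, 18.5 and 22.0 with shM5, with replicate 3 of the controls nearest the shM5 libraries.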
